A study of Mus musculus with 4 samples.

Results

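The genes described here are the DNA repair genes of the mouse macrophage line RAW264.7, measured by RNA sequencing after 48 h. They were chosen by symbol alone, as the Rad, Xrcc, Fanc, Brca, Ercc, Msh, Mlh and Parp families together with Lig3, Lig4, Atm, Atr, Chek1, Chek2, Ung, Ogg1, Mutyh, Apex1 and Apex2. The rule matched 70 of the 40213 gene symbols listed for each library, and it uses no measured value. The samples analysed were 4 libraries, 2 titled CuNZ@Gel and 2 titled Gel, all from RAW264.7 cells that had adhered to culture plates before treatment. The series title calls the material a sprayable nanozyme hydrogel for diabetic wounds, and the labels do not spell out CuNZ. The treatment text names CuNZ@Gel for every library, so that the Gel group was read from the sample titles. RAW264.7 is a virus-transformed line, so that it models a dividing macrophage and not a resting tissue cell. Nothing in the labels says that the 2 libraries of a group came from separate cultures, and the p-values given here therefore measure the spread between libraries, which may be technical.

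Cells meet different lesions with different machines. Kinases such as ATM and ATR sense breaks and stalled forks, double-strand breaks are rejoined by homologous recombination or by end joining, crosslinks are opened by the Fanconi anaemia proteins, bulky adducts are cut out by nucleotide excision repair, and replication errors are removed by mismatch repair. Deaminated bases, and bases oxidised by the reactive oxygen that macrophages make, are replaced by base excision repair, in which PARP1 and PARP2 mark the nick and XRCC1 gathers the enzymes that close it. Many of these genes are transcribed most in dividing cells.

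The libraries held 13718000 to 14881000 reads, recovered from the deposited values. Values are given as scaled CPM, which is reads over the library total (CPM) divided by a further factor for each library, and changes are differences of log2(scaled CPM + 1), CuNZ@Gel minus Gel. A gene was called raised or lowered at an adjusted p of 0.05 in limma, fitted over the 11588 genes that reached 1 scaled CPM in 2 or more libraries. All 10 macrophage markers passed that filter, with a summed level of 9155 to 9373 scaled CPM in CuNZ@Gel and 6056 to 6222 in Gel. Lyz2 made up 64% and 63.1% of that sum in CuNZ@Gel, against 49.6% and 50.7% in Gel. Of these markers 6 were raised, Cd68 (-0.23), Fcgr1 (-0.82) and Tyrobp (-0.82) were lowered and Spi1 (-0.084) was not called. The summed fibroblast markers lay at 0.126 to 0.19 scaled CPM in CuNZ@Gel and 0.218 to 0.311 in Gel, with Lum at 0 in all libraries. The summed epithelial markers lay at 0.504 to 0.571 scaled CPM in CuNZ@Gel and 1.09 to 1.87 in Gel. The summed lymphocyte markers lay at 1.02 to 1.32 scaled CPM in CuNZ@Gel and 0 to 0.145 in Gel, with Cd3e, Ms4a1 and Nkg7 at 0 in all libraries. The summed endothelial markers lay at 7.56 to 8.51 scaled CPM in CuNZ@Gel and 2.17 to 2.65 in Gel, nearly all of it Vwf, with Cldn5 at 0 in all libraries.

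As a class the repair genes moved in both directions about as often as genes in general. Of the 68 members that passed the filter, 22 were raised in CuNZ@Gel, 22 were lowered and 24 did not pass the threshold. These shares of 32.4% in each direction stand beside 32.2% raised and 34.8% lowered among all genes tested, of which 67.1% were called in either direction. The median log2 change was 0.004 over the tested members and -0.029 over all genes tested. For 56 of the 68 members, or 82.4%, the CuNZ@Gel and Gel values stood clear of each other, against 83.2% of all genes. The members span log2 changes of -1.11 for Rad51b to 1.27 for Parp4, and these alone were called with a log2 change of at least 1, a size that 7.06% of all genes reached upward and 6.12% downward. The remaining members, Msh4 and Parp8, were too low to test. Msh4, a meiotic mismatch homologue, had 0 and 3 reads in CuNZ@Gel and 0 and 0 reads in Gel. Parp8 had 11 and 7 reads in CuNZ@Gel and 5 and 3 reads in Gel. These are bulk libraries, and in bulk RNA, fewer cells in a phase of the cycle and less RNA of a gene per cell cannot be told apart.

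**Figure D1:**
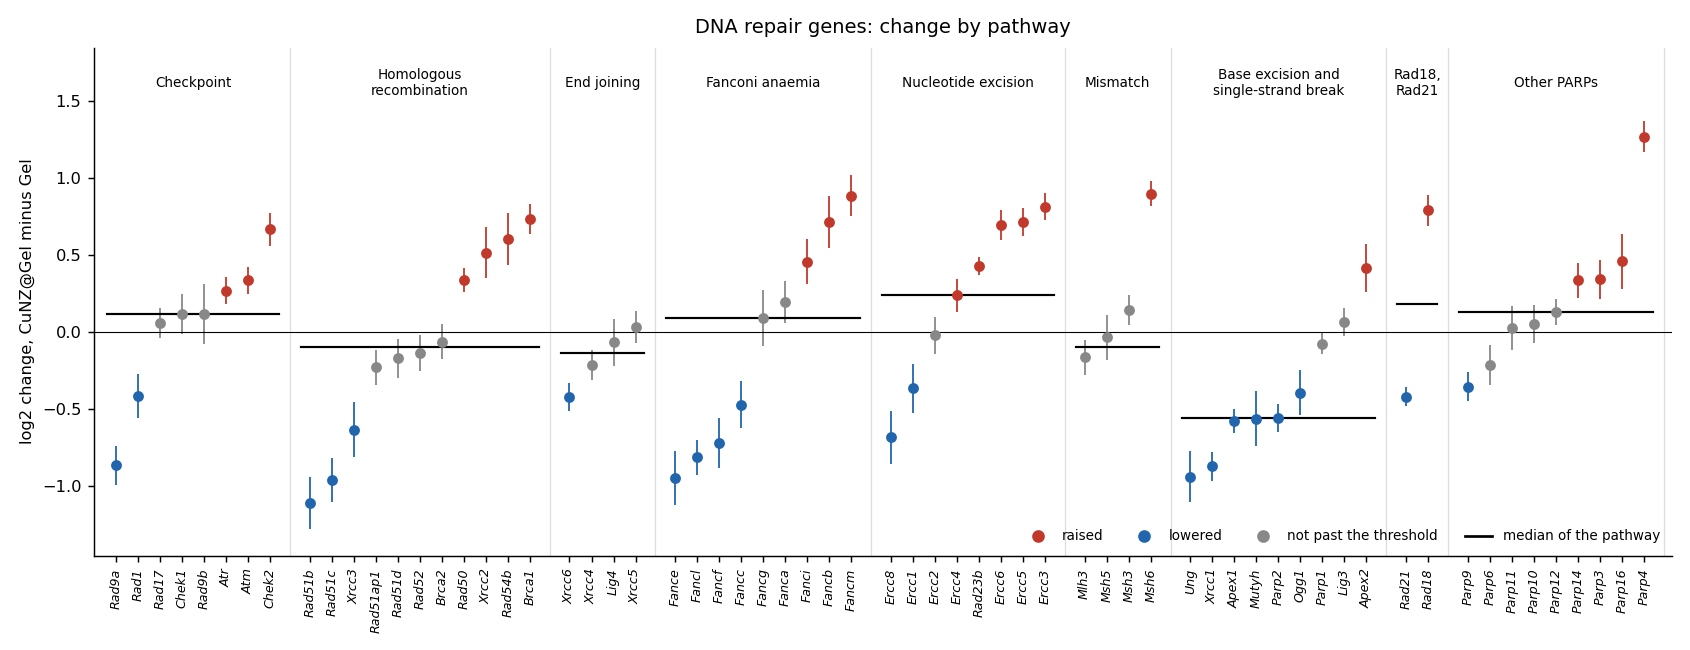
Log2 change of the tested repair genes reported here (vertical axis, log2(scaled CPM + 1), CuNZ@Gel minus Gel) by pathway, with bars at the median over all tested members and whiskers of 1 SE from limma. Red and blue points passed an adjusted p of 0.05 and grey points did not. Each pathway but end joining and mismatch repair shows both raised and lowered points, and the base excision median lies at -0.56.

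The pathways differed in their balance of calls. Base excision and single-strand break repair had 1 of 9 tested members raised and 6 lowered, and its median change was -0.56 on the log2 scale. Nucleotide excision repair had 5 of 9 raised and 3 lowered, with a median of 0.24, against 4 raised, 2 lowered and a median of 0.000 once each library was corrected for transcript length and GC content. Checkpoint genes had 3 of 8 raised and 2 lowered, homologous recombination 4 of 12 raised and 3 lowered, and the Fanconi anaemia genes 3 of 9 raised and 4 lowered. Mismatch repair had 1 of 6 raised and 1 lowered, and end joining 0 of 4 raised and 1 lowered. The PARP genes outside single-strand break repair had 4 of 9 raised and 1 lowered. No test was made between pathways, whose members are few and were chosen with earlier results known.

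**Figure D2:**
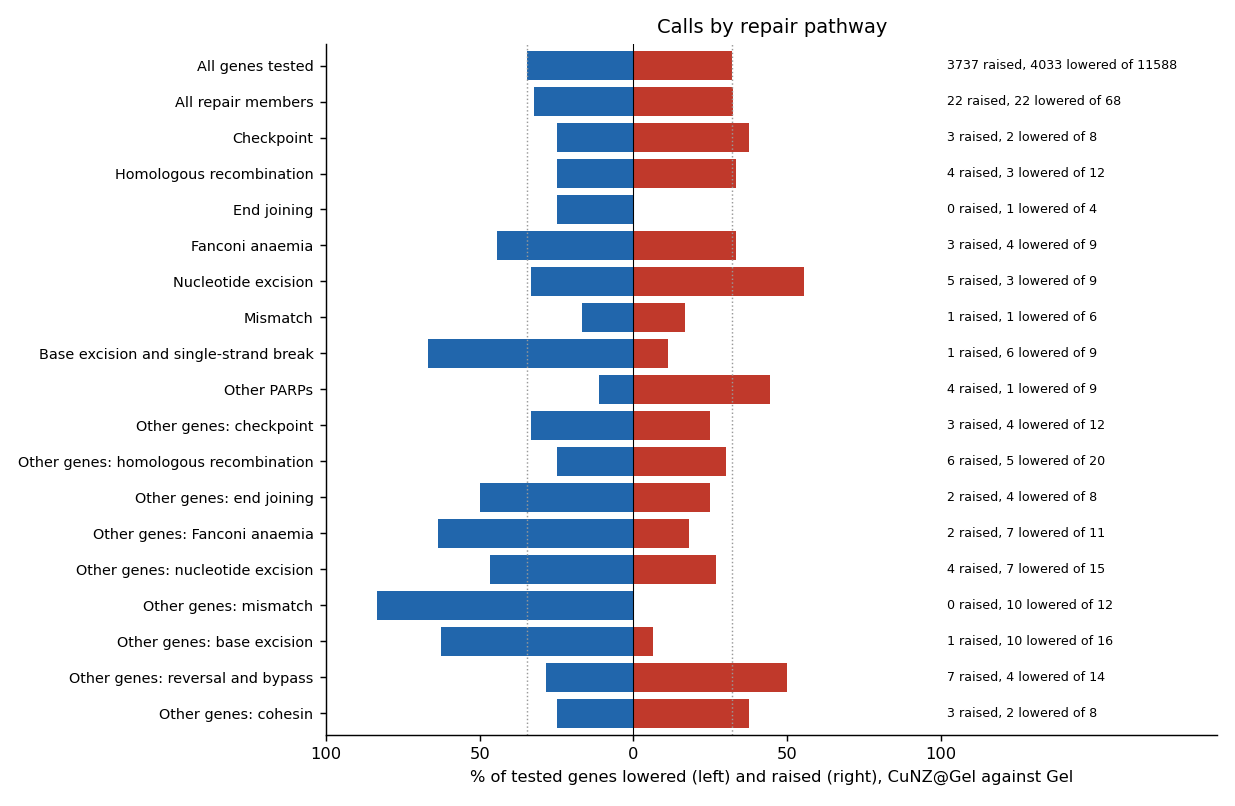
Share of tested genes lowered (left, blue) and raised (right, red) in CuNZ@Gel against Gel, in percent, for all genes, the repair genes by pathway and the other genes of each pathway. Dotted lines mark the 34.8% lowered and 32.2% raised among all genes. The bars of base excision repair reach 66.7% on the lowered side, and those of the other mismatch genes are on the lowered side alone.

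Longer transcripts tended to be higher in CuNZ@Gel and shorter ones lower, among the repair genes and among all genes. Across the 68 tested members, the log2 change had a Pearson correlation of 0.502 with the log2 of transcript length and of -0.276 with GC content. Across 10898 genes with a known length these were 0.274 and -0.164. These are correlations across genes of the same libraries, which are not independent replicates. The median longest transcript was 2528 bases among the base excision members and 3578 bases among the nucleotide excision members, against 3302 bases over all genes. When each library was corrected for length and GC, 17 members were raised and 24 lowered, beside 30.6% and 35.3% of all genes with a length. Length and GC were measured from a reference annotation, and their part in the changes was not tested. When the libraries were scaled by total reads alone, the median of all genes moved up by 0.18, and 28 members were raised and 16 lowered, beside 43.2% and 24.8% of all genes. The lowered members whose call that scaling ended included Rad1, Ogg1, Parp9, Ercc1 and Fancc.

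**Figure D3:**
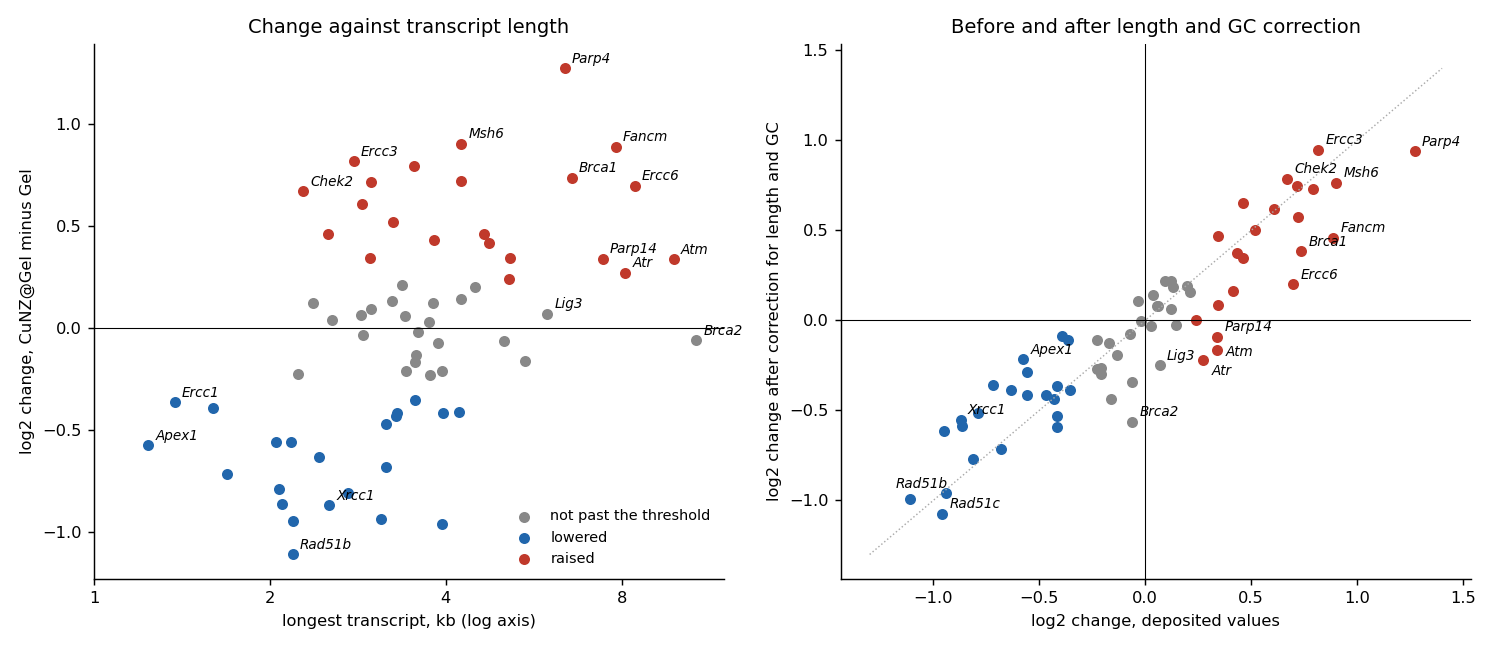
Left, log2 change of each tested repair gene (CuNZ@Gel minus Gel) against the length of its longest transcript in kb on a log axis. Right, the same change after correction of each library for length and GC (vertical axis) against the uncorrected change (horizontal axis), with the line of equality dotted. Atm, Atr and Parp14 lie above 0 before and below 0 after the correction, and Rad51b, Rad51c, Msh6, Ercc3 and Chek2 keep their sign.

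Some promoters of these genes carry letters bound by E2F, the factor that switches on genes of S phase, and those of 4 called genes are shown to set that against their change. In RefSeq windows of 300 bases on GRCm38.p6, from 250 bases before to 50 bases after the start, 55 of the 70 members had an entry. The letters TTTCCCGC, TTTGGCGC, TTTCGCGC or TTTGCCGC, on either strand and including overlaps, stood in the promoters of 8 of these 55 genes, or 14.5%. The share was 5.02% of the 9062 tested genes with an entry and 2.26% of all 32851 windows. Of the members with an entry, 2 of 16 raised, 2 of 17 lowered and 4 of 20 not called held the letters, so that a match stood in genes of either direction. Msh6, Chek2, Rad51c and Xrcc6 are the called genes with a match, the first pair raised and the other pair lowered. Their windows lie at chr17:87974800-87975099 on the plus strand, chr5:110839733-110840032 on the plus strand, chr11:87404905-87405204 on the minus strand and chr15:82016119-82016418 on the plus strand. Each is written 5′ to 3′ along its gene, with the E2F letters in capitals.
Msh6: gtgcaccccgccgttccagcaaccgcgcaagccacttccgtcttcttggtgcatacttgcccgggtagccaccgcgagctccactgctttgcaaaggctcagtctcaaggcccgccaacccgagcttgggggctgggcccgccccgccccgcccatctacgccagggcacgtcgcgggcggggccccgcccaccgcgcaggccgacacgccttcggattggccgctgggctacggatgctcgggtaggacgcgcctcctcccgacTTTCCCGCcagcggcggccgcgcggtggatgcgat
Chek2: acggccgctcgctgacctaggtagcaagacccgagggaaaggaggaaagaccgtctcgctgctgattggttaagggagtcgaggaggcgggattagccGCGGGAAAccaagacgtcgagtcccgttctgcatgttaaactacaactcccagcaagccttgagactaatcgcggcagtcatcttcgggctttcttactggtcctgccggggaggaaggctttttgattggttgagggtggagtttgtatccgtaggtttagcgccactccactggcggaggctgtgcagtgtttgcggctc
Rad51c: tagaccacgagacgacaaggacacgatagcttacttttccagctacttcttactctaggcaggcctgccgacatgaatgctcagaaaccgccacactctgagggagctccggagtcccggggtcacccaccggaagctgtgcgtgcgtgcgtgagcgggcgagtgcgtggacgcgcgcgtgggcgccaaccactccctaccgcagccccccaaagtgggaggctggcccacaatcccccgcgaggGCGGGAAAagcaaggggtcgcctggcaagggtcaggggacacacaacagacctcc
Xrcc6: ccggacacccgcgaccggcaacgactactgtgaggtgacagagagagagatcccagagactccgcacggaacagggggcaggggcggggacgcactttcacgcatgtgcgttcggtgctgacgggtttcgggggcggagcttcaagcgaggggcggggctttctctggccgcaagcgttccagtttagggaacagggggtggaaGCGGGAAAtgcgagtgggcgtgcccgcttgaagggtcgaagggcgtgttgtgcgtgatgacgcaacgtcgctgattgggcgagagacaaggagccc
The match began at 15 bases after the start in Msh6, 152 bases before it in Chek2, 5 bases before it in Rad51c and 46 bases before it in Xrcc6. Rad51c has a second window, chr11:87404457-87404756 on the minus strand, which is not printed. Its match began 11 bases after that start. The cell-cycle letters TTTGAA stood in 4 of the 55 genes, or 7.27%, against 15.1% of tested genes and 17.9% of windows. The antioxidant-response letters TGACNNNGC stood in 5 genes, or 9.09%, against 16.9% of tested genes and 12.4% of windows. Both were searched on either strand, and a match of letters is a description and not a binding site.

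Of the checkpoint kinases Atm, Atr and Chek2 were called raised and Chek1 was not, and Rad9a and Rad1 of the clamp that loads at damage were lowered. Atm had 49.1 and 48.5 scaled CPM in CuNZ@Gel, against 40.3 and 36.6 in Gel. Atm, the kinase that answers double-strand breaks, was thus higher in both CuNZ@Gel libraries than in either Gel library (log2 change 0.34 ± 0.087 SE, adjusted p = 0.00174). Atr had 52.2 and 45.4 scaled CPM in CuNZ@Gel, against 40.1 and 40.3 in Gel. Atr, the kinase of single-stranded DNA and stalled forks, also did not overlap between the groups (log2 change 0.27 ± 0.089 SE, adjusted p = 0.0107). Chek2, the effector kinase below ATM, had the largest change of the kinases. Chek2 had 30.8 and 31.2 scaled CPM in CuNZ@Gel, against 17.6 and 20.7 in Gel, and the groups did not overlap (log2 change 0.67 ± 0.11 SE, adjusted p = 1.32e-05). Chek1 had 17.5 and 13.9 scaled CPM in CuNZ@Gel, against 13.3 and 15.3 in Gel, so that the groups overlapped for the effector kinase below ATR (log2 change 0.12 ± 0.13 SE, adjusted p = 0.435). Rad9a, a ring subunit of the 9-1-1 clamp, went the other way. Rad9a had 8.57 and 9.20 scaled CPM in CuNZ@Gel, against 16.6 and 17.4 in Gel, without overlap (log2 change -0.86 ± 0.13 SE, adjusted p = 4.93e-06). Rad1, its ring partner, was also lowered (log2 change -0.41, adjusted p = 0.0133). Rad17, which loads the clamp, and Rad9b, the paralogue of Rad9a, were not called, at log2 changes of 0.061 and 0.12. Of the exon bases of Rad9b, 23.2% lie opposite Pptc7. Of those of Rad9a, 9.53% lie opposite Ppp1ca (log2 change -0.26), whose mean level was 118 scaled CPM in CuNZ@Gel and 142 in Gel. After the correction for length and GC, the log2 change was -0.17 for Atm (adjusted p = 0.101) and -0.22 for Atr (adjusted p = 0.0149), so that both changed sign. The calls of Atr and Rad1 were lost without CuNZ@Gel replicate 1, and that of Rad1 also without CuNZ@Gel replicate 2 or Gel replicate 2.

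In homologous recombination Brca1 and Rad50 were raised, and the subunits of the recombination mediator complexes split. Brca1 had 51.8 and 43.5 scaled CPM in CuNZ@Gel, against 28.1 and 28.1 in Gel. Brca1, which directs breaks toward resection, was higher in both CuNZ@Gel libraries (log2 change 0.74 ± 0.097 SE, adjusted p = 9.68e-07). Brca2 had 26.3 and 21.5 scaled CPM in CuNZ@Gel, against 23.2 and 26.7 in Gel. Brca2, which mediates strand exchange after resection, overlapped between the groups (log2 change -0.061 ± 0.12 SE, adjusted p = 0.653). Rad50 had 90.6 and 84.98 scaled CPM in CuNZ@Gel, against 65.9 and 72.4 in Gel, without overlap, for this arm of the MRE11 complex that holds broken ends (log2 change 0.34 ± 0.076 SE, adjusted p = 0.000491). Among the mediator genes, Rad51b and Rad51c fell together. Rad51b had 2.39 and 2.41 scaled CPM in CuNZ@Gel, against 6.01 and 6.70 in Gel. Rad51b had the lowest log2 change of the members tested (log2 change -1.11 ± 0.17 SE, adjusted p = 6.82e-06). Rad51c had 8.01 and 7.93 scaled CPM in CuNZ@Gel, against 19.1 and 14.2 in Gel. Rad51c, which sits in both mediator complexes, did not overlap between the groups (log2 change -0.96 ± 0.14 SE, adjusted p = 5.61e-06). Xrcc3, its partner in the smaller complex, was lowered as well (log2 change -0.63, adjusted p = 0.00374). Xrcc2, a partner in the larger complex, was raised (log2 change 0.52, adjusted p = 0.00901), and Rad51d, the remaining subunit, was not called at -0.17. Rad54b, a motor protein of recombination, was raised (log2 change 0.61, adjusted p = 0.00317), although 35.8% of its exon bases are shared with Fsbp on the same strand, which had a log2 change of 0.74. Rad51ap1 and Rad52, which assist strand pairing and annealing, were not called, at -0.23 and -0.13. After the correction for length and GC, Rad50 was no longer called at 0.086, Xrcc3 was no longer called at -0.39, Brca1 stood at 0.38, and Brca2 was called lowered at -0.56 (adjusted p = 9.11e-05). The calls of Rad54b and Xrcc2 were lost without CuNZ@Gel replicate 1, that of Rad54b also without Gel replicate 2, and that of Xrcc2 also without Gel replicate 1.

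End joining had 1 called member. Xrcc6 had 31.4 and 28.7 scaled CPM in CuNZ@Gel, against 39.8 and 41.2 in Gel. Xrcc6, the KU70 subunit of the ring that caps broken ends, was lower in both CuNZ@Gel libraries (log2 change -0.42 ± 0.092 SE, adjusted p = 0.000451). Of the exon bases of Xrcc6, 7.69% lie opposite Desi1 (log2 change -0.57). Xrcc5 had 29.4 and 28.1 scaled CPM in CuNZ@Gel, against 30.4 and 25.9 in Gel. Xrcc5, the KU80 partner, overlapped between the groups (log2 change 0.037 ± 0.1 SE, adjusted p = 0.764). Lig4 had 6.24 and 7.55 scaled CPM in CuNZ@Gel, against 7.53 and 6.93 in Gel. Lig4, the ligase that seals the ends, overlapped as well (log2 change -0.064 ± 0.15 SE, adjusted p = 0.726). Xrcc4, its scaffold, was lower in both CuNZ@Gel libraries but not called (log2 change -0.21, adjusted p = 0.0617). The median of these 4 genes was -0.14 with the deposited scaling and 0.037 with total reads, and that of all genes was -0.029 and 0.148.

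The Fanconi anaemia genes, which unhook crosslinks between DNA strands, moved apart within the same complex. Fancm had 15.3 and 14.8 scaled CPM in CuNZ@Gel, against 8.04 and 7.32 in Gel. Fancm, the translocase that anchors the core complex on DNA, did not overlap between the groups (log2 change 0.89 ± 0.13 SE, adjusted p = 5.78e-06). Fancl had 13.2 and 14.8 scaled CPM in CuNZ@Gel, against 26 and 24.5 in Gel. Fancl, the ubiquitin ligase of the core complex, was lower in both CuNZ@Gel libraries (log2 change -0.81 ± 0.11 SE, adjusted p = 2.46e-06). The adaptor subunits Fance and Fancf went the same way as Fancl. Fance had 4.54 and 5.14 scaled CPM in CuNZ@Gel, against 12.8 and 8.18 in Gel, without overlap (log2 change -0.95 ± 0.17 SE, adjusted p = 6.88e-05). Fancf had 4.41 and 3.93 scaled CPM in CuNZ@Gel, against 6.81 and 8.25 in Gel, also without overlap (log2 change -0.72 ± 0.16 SE, adjusted p = 0.000541). Fanca had 12.8 and 10.9 scaled CPM in CuNZ@Gel, against 10.7 and 9.58 in Gel. Fanca, the core subunit paired with Fancg, was higher in CuNZ@Gel but not called (log2 change 0.20 ± 0.14 SE, adjusted p = 0.205), and Fancg was not called at 0.093. Fancb, which holds the catalytic module together, was raised (log2 change 0.72, adjusted p = 0.000864), and so was Fanci, a substrate of the ligase (log2 change 0.46, adjusted p = 0.0083). Fancc, a core subunit that binds FANCE, was lowered (log2 change -0.47, adjusted p = 0.00979). Counting of reads by strand is not stated, and Fanci, Fancc, Fancf, Fancl and Fanca share 10.5% to 16.4% of their exon bases with a gene on the opposite strand. With length and GC corrected, Fancm stood at 0.46 and Fancf was no longer called at -0.36. Without CuNZ@Gel replicate 1 the calls of Fancb and Fanci were lost, that of Fanci also without Gel replicate 1, and that of Fancc without CuNZ@Gel replicate 2 or Gel replicate 2.

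Nucleotide excision repair held the most raised members. Ercc3 had 61.1 and 53.5 scaled CPM in CuNZ@Gel, against 32.8 and 31.3 in Gel. Ercc3, the XPB translocase of TFIIH that opens DNA at the lesion, was higher in both CuNZ@Gel libraries (log2 change 0.82 ± 0.09 SE, adjusted p = 7.58e-08). Ercc2 had 15.6 and 16.6 scaled CPM in CuNZ@Gel, against 17.8 and 15.02 in Gel. Ercc2, the XPD helicase of the same complex, overlapped between the groups (log2 change -0.02 ± 0.12 SE, adjusted p = 0.896). Ercc5, the XPG nuclease that cuts on the 3′ side, moved with Ercc3. Ercc5 had 44.1 and 43.7 scaled CPM in CuNZ@Gel, against 26.2 and 26.4 in Gel, without overlap (log2 change 0.72 ± 0.091 SE, adjusted p = 5.53e-07). The nuclease that cuts on the 5′ side is made of ERCC1 and ERCC4. Ercc1 had 7.44 and 7.87 scaled CPM in CuNZ@Gel, against 12.2 and 8.41 in Gel, both CuNZ@Gel libraries being below both Gel libraries (log2 change -0.36 ± 0.16 SE, adjusted p = 0.0488). Ercc4, also named XPF, was called raised by a small margin (log2 change 0.24, adjusted p = 0.0498). Rad23b, which holds the lesion sensor XPC, was raised. Rad23b had 310.0 and 323 scaled CPM in CuNZ@Gel, against 239 and 231 in Gel, without overlap (log2 change 0.43 ± 0.06 SE, adjusted p = 2.2e-06). The genes of transcription-coupled repair, in which CSB and CSA free a stalled RNA polymerase, split too. Ercc6, which encodes CSB, was raised (log2 change 0.70, adjusted p = 3.1e-06), and Ercc8, which encodes CSA, was lowered (log2 change -0.68, adjusted p = 0.00155). Of the exon bases of Ercc2, 24.6% lie opposite Gm26852 and 17.8% opposite Klc3. After the correction for length and GC, Ercc6 stood at 0.20, and neither Ercc4 at 0.000 nor Ercc1 at -0.11 was called. The call of Ercc4 was lost whichever library was left out, that of Ercc1 without either CuNZ@Gel replicate or Gel replicate 1, and that of Ercc8 without CuNZ@Gel replicate 1.

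**Figure D4:**
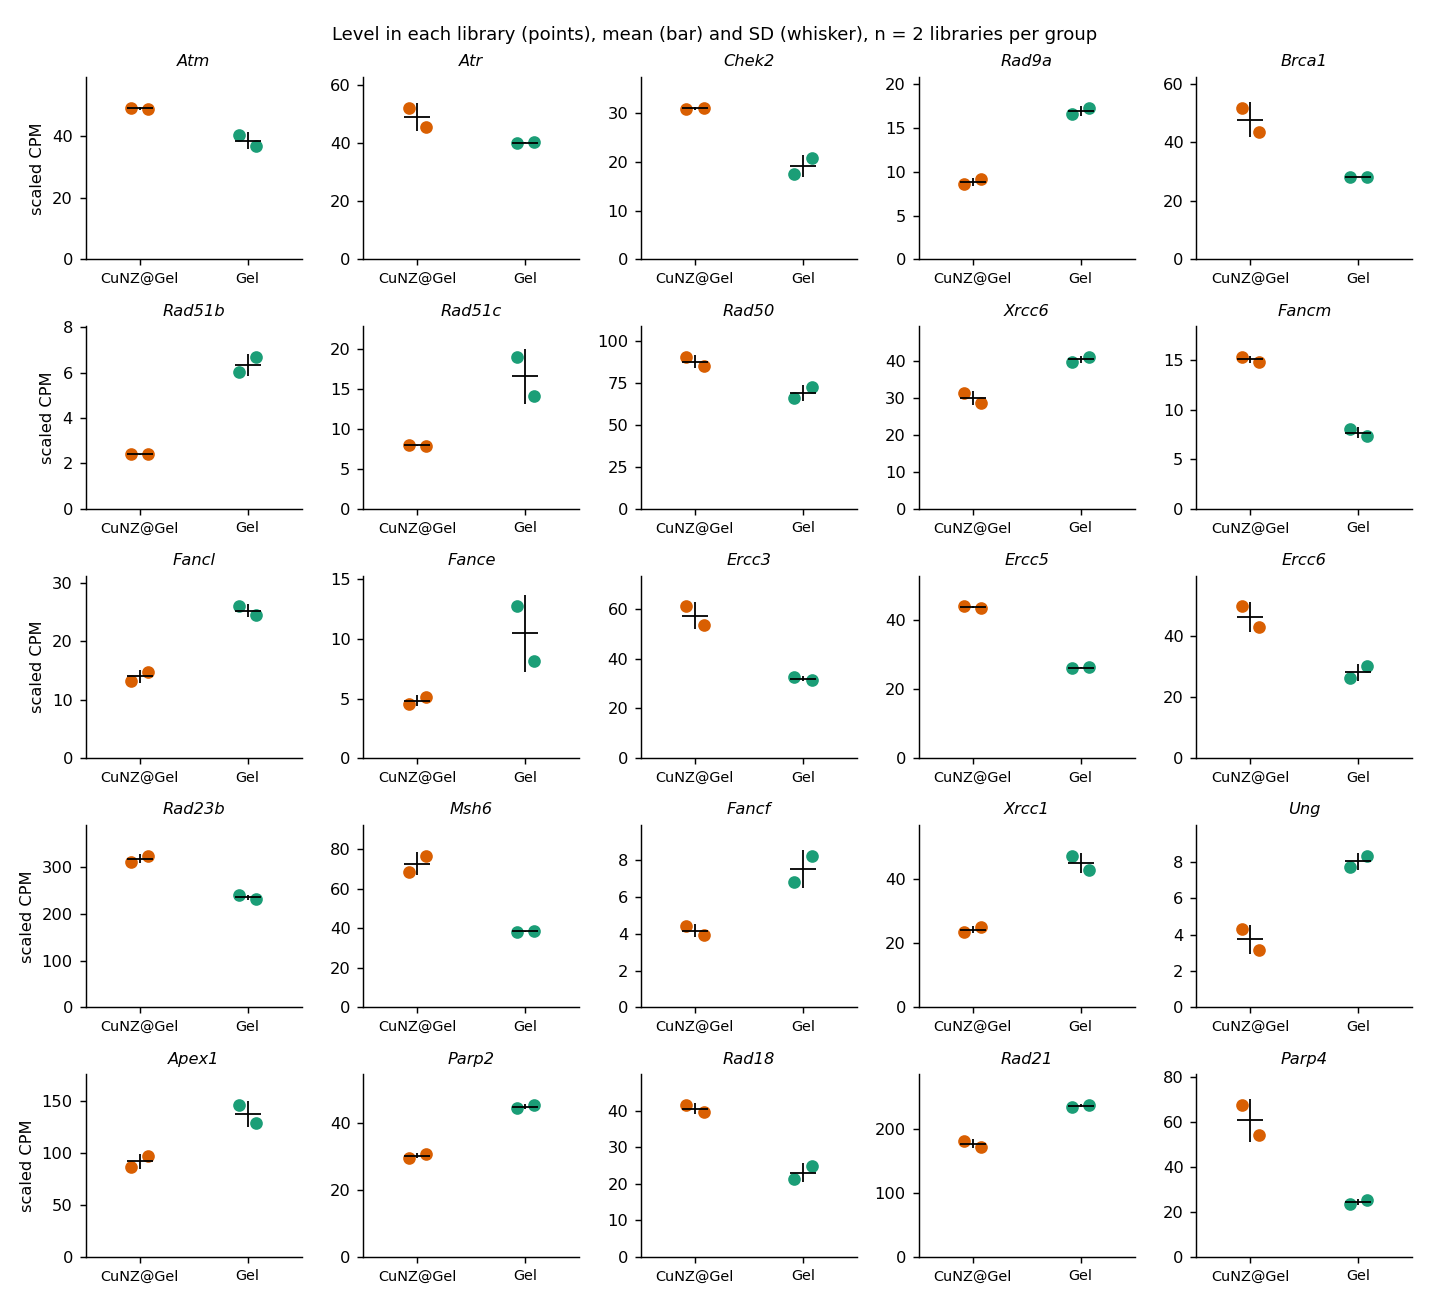
Level of named repair genes in each library in scaled CPM (vertical axes, each from 0), with CuNZ@Gel libraries left in orange and Gel libraries right in green, the mean as a bar and the SD as a whisker, n = 2 libraries a group. Msh6, Ercc3, Chek2, Rad18 and Parp4 are higher in both CuNZ@Gel libraries, and Xrcc1, Rad51b, Ung and Parp2 are lower in both.

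Mismatch repair had 1 raised and 1 lowered member among 6 tested. Msh6 had 68.7 and 76.9 scaled CPM in CuNZ@Gel, against 38.3 and 38.6 in Gel. Msh6, which reads single mismatches, was higher in both CuNZ@Gel libraries (log2 change 0.90 ± 0.083 SE, adjusted p = 5.07e-09). Msh3, which reads small loops, was not called at 0.14, nor were Mlh3 at -0.16 and Msh5, a meiotic homologue, at -0.033. The median of the 6 tested genes was -0.097 with the deposited scaling and 0.076 with total reads, a scaling that brought the median of all genes to 0.148.

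Base excision and single-strand break repair had more lowered members than any other pathway, and they run from the glycosylases to the scaffold. Ung had 4.29 and 3.17 scaled CPM in CuNZ@Gel, against 7.68 and 8.33 in Gel. Ung, the glycosylase that removes uracil, was lower in both CuNZ@Gel libraries (log2 change -0.94 ± 0.17 SE, adjusted p = 4.29e-05). Ogg1 had 8.26 and 10.8 scaled CPM in CuNZ@Gel, against 13.8 and 11.8 in Gel. Ogg1, the glycosylase of oxidised guanine, was lower in both CuNZ@Gel libraries (log2 change -0.39 ± 0.15 SE, adjusted p = 0.0219), and Mutyh, which removes adenine opposite oxidised guanine, was lowered too (log2 change -0.56, adjusted p = 0.00938). Apex1 had 86.4 and 97.02 scaled CPM in CuNZ@Gel, against 146 and 128 in Gel. Apex1, the main endonuclease of abasic sites, did not overlap between the groups (log2 change -0.58 ± 0.077 SE, adjusted p = 1.19e-06). Its paralogue Apex2 was the only raised member of the pathway (log2 change 0.42, adjusted p = 0.0231). Xrcc1 had 23.5 and 25.1 scaled CPM in CuNZ@Gel, against 47.5 and 42.99 in Gel. Xrcc1, the scaffold that gathers the nick-sealing enzymes, was lower in both CuNZ@Gel libraries (log2 change -0.87 ± 0.095 SE, adjusted p = 6.95e-08). Parp1 had 122 and 117 scaled CPM in CuNZ@Gel, against 123 and 128 in Gel. Parp1, the abundant nick sensor, was lower in both CuNZ@Gel libraries but by less than the threshold (log2 change -0.073 ± 0.067 SE, adjusted p = 0.336). Parp2 had 29.6 and 30.8 scaled CPM in CuNZ@Gel, against 44.4 and 45.4 in Gel. Parp2, the second nick sensor, was lowered without overlap (log2 change -0.56 ± 0.089 SE, adjusted p = 1.24e-05). Lig3, the ligase bound by XRCC1, was not called at 0.07, and 25.1% of its exon bases lie opposite Rffl, which had a log2 change of -1.05. Of the exon bases of Apex1, 61.7% lie opposite Pip4p1 (log2 change -0.31), and of those of Ogg1, 10.6% lie opposite Camk1 (log2 change -0.88), whose mean level was 138 scaled CPM in CuNZ@Gel and 254 in Gel. With length and GC corrected, the pathway had 0 raised and 5 lowered members with a median of -0.25, Apex1 stood at -0.22, Parp2 at -0.42 and Xrcc1 at -0.55, and Lig3 was called lowered at -0.25 (adjusted p = 0.0122). Under scaling by total reads the pathway had 2 raised and 5 lowered members with a median of -0.37. The calls of Ogg1, Mutyh and Apex2 were each lost without CuNZ@Gel replicate 1 or Gel replicate 1, and after the correction for length and GC.

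The other PARP genes act mostly outside repair, and several were raised. Parp4 had 67.6 and 54.02 scaled CPM in CuNZ@Gel, against 23.5 and 25.5 in Gel. Parp4, the vault PARP, had the highest log2 change of the members tested (log2 change 1.27 ± 0.1 SE, adjusted p = 5.59e-10). Parp3 had 16.3 and 14.7 scaled CPM in CuNZ@Gel, against 12.5 and 11.4 in Gel, without overlap, for this PARP that acts at double-strand breaks (log2 change 0.35 ± 0.13 SE, adjusted p = 0.0206). The interferon-linked Parp9 and Parp14, which are reported to oppose each other in macrophage activation, went opposite ways here. Parp9 had 31.3 and 29.3 scaled CPM in CuNZ@Gel, against 37.1 and 40.96 in Gel, without overlap (log2 change -0.35 ± 0.094 SE, adjusted p = 0.0024). Parp14 had 19.5 and 20.3 scaled CPM in CuNZ@Gel, against 15.4 and 15.6 in Gel, also without overlap (log2 change 0.34 ± 0.11 SE, adjusted p = 0.0123). Parp16, a PARP of the endoplasmic reticulum, was raised at a low level (log2 change 0.46, adjusted p = 0.0291). Parp6, Parp10, Parp11 and Parp12 were not called, with log2 changes of -0.21 to 0.13. After the correction for length and GC, Parp14 was no longer called and stood below 0 at -0.091 (adjusted p = 0.473). The call of Parp14 was lost without CuNZ@Gel replicate 2, that of Parp3 without CuNZ@Gel replicate 1 or Gel replicate 2, and that of Parp16 when any of these 3 libraries was left out.

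Rad18 and Rad21 share the family name but belong to other processes. Rad18 had 41.5 and 39.5 scaled CPM in CuNZ@Gel, against 21.2 and 24.8 in Gel. Rad18, the ligase that ubiquitinates PCNA and so opens lesion bypass, was higher in both CuNZ@Gel libraries (log2 change 0.79 ± 0.1 SE, adjusted p = 5.99e-07). Rad21 had 182 and 171 scaled CPM in CuNZ@Gel, against 235 and 238 in Gel. Rad21, the cleavable subunit of the cohesin ring, was lower in both CuNZ@Gel libraries (log2 change -0.42 ± 0.062 SE, adjusted p = 5.16e-06).

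Partner genes are read in the same library, so that on the log scale the scaling of a library cancels between them but for the pseudocount. Partners were compared in 14 pairs, and the log2 difference between partners did not overlap between the groups in 12. Of single genes, 83.2% had groups that did not overlap, and the share over pairs of all genes was not computed. Ercc6 minus Ercc8 was 3.41 and 2.71 in CuNZ@Gel, against 1.51 and 1.86 in Gel. Apex1 minus Apex2 was 3.24 and 3.62 in CuNZ@Gel, against 4.56 and 4.28 in Gel. The balance within these pairs thus shifted by 1.38 and -0.99, the widest shifts of the 14. Lig3 minus Xrcc1 was 0.60 and 0.46 in CuNZ@Gel, against -0.54 and -0.28 in Gel, so that their order turned over on this scale, which ignores length. Per kb of longest transcript Xrcc1 stayed above Lig3. The means were 9.61 against 5.95 scaled CPM per kb in CuNZ@Gel, and 17.9 against 5.67 in Gel. Brca1 minus Brca2 was 0.95 and 0.98 in CuNZ@Gel, against 0.27 and 0.07 in Gel. Msh6 minus Msh3, which read different mismatches, was 1.22 and 1.35 in CuNZ@Gel, against 0.49 and 0.57 in Gel. The shifts of these last 3 pairs were in favour of the first partner. Unlike scaling, transcript length and GC differ between partners and do not cancel. After the correction for length and GC the log2 changes were 0.20 for Ercc6 and -0.71 for Ercc8. They were -0.22 for Apex1 and 0.16 for Apex2, and -0.25 for Lig3 and -0.55 for Xrcc1. Brca1 stood at 0.38 and Brca2 at -0.56, and Msh6 at 0.765 and Msh3 at -0.025. The part of length in these shifts was not tested. Atm minus Atr was -0.087 and 0.092 in CuNZ@Gel, against 0.008 and -0.14 in Gel, and Lig4 minus Xrcc4 overlapped likewise. With 2 libraries against 2 an exact permutation test of a single pair cannot give a two-sided p below 0.333, so that no p is given for the pairs.

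**Figure D5:**
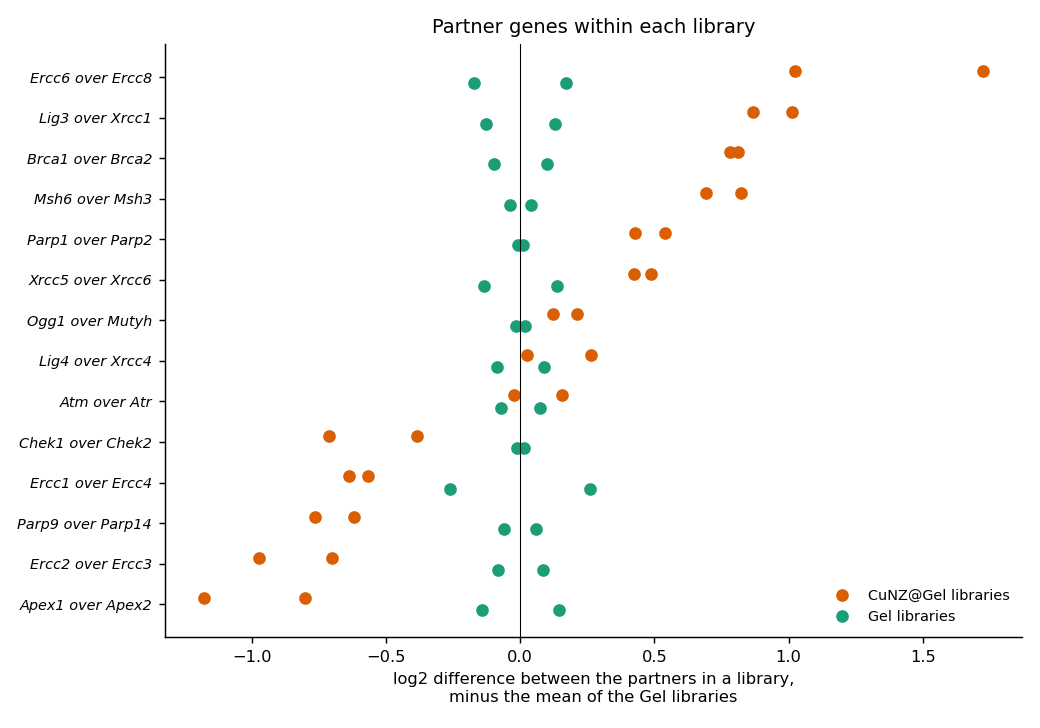
Log2 difference between partner genes within each library, less the mean of the Gel libraries (horizontal axis), for the 14 pairs, with CuNZ@Gel libraries in orange and Gel libraries in green. The CuNZ@Gel points lie clear of the Gel points in 12 pairs, and Atm over Atr and Lig4 over Xrcc4 overlap.

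Per kb of longest transcript, the most abundant members were Rad23b, at a mean of 83.1 scaled CPM per kb in CuNZ@Gel and 61.6 in Gel, and Apex1, at 74.0 in CuNZ@Gel and 111 in Gel. Rad21 followed at 44.6 scaled CPM per kb in CuNZ@Gel and 59.7 in Gel, and Parp1 at 30.8 in CuNZ@Gel and 32.4 in Gel. The order of the first pair was thus reversed between the groups. At the low end in CuNZ@Gel, Xrcc3 stood at 0.914 scaled CPM per kb, against 1.65 in Gel. In Gel other members were lower, such as Fancm at 0.983, which stood at 1.93 in CuNZ@Gel.

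The other genes of these pathways, whose symbols the rule does not match, held fewer raised and more lowered genes, in share, than all genes did. Their 116 tested members held 28 raised and 53 lowered genes, or 24.1% and 45.7% against 32.2% and 34.8% of all genes, and their median log2 change was -0.17 against -0.029. Under scaling by total reads they held 44 raised and 38 lowered genes, or 37.9% and 32.8% against 43.2% and 24.8% of all genes, and their median was 0.008 against 0.148. The other mismatch repair genes had 0 of 12 raised and 10 lowered, among them Rfc4 (-1.15), Pold2 (-1.10) and Rfc2 (-0.80). Most genes of that list, such as polymerase delta and the clamp loader, rebuild DNA after excision. The other base excision genes had 1 of 16 raised and 10 lowered, among them the glycosylase Neil1 (-1.53), the end-cleaning enzyme Tdp1 (-1.14) and the PARP cofactor Hpf1 (-0.96). These 2 lists kept medians below 0 under scaling by total reads, at -0.38 and -0.34, and after the correction for length and GC, at -0.52 and -0.40. The other Fanconi anaemia genes had 2 of 11 raised and 7 lowered, among them the core-complex subunit Faap100 (-1.06), the deubiquitinase Usp1 (-0.46) and the FANCM partner Cenpx (-0.70). The other nucleotide excision genes had 4 of 15 raised and 7 lowered, with a median of -0.15, which was 0.034 with total reads, under which all genes stood at 0.148. Those with the smallest p were all TFIIH subunits and lowered, namely Mnat1 (-0.96), Ccnh (-0.70) and Gtf2h4 (-1.09), while Ercc3 of the same complex was raised. The other end-joining genes had 2 of 8 raised and 4 lowered, among them Paxx (-1.51), which steadies KU at the ends, and, raised, the kinase gene Prkdc (0.76).

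The direct reversal and bypass genes had 7 of 14 raised and 4 lowered, among them the bypass polymerases Polk (1.44) and Poli (-0.90) and the PCNA ligase Shprh (0.84). The other checkpoint genes had 3 of 12 raised and 4 lowered, and the raised ones were Clspn (0.94), which carries the ATR signal to CHK1, Trp53bp1 (0.82), which shields breaks from resection, and Topbp1 (0.33), which activates ATR. The list of other homologous recombination genes had 6 of 20 raised and 5 lowered, among them Rbbp8 (-0.65), which starts resection, and the nuclease gene Mus81 (-0.67). Counted in that list is Polq (1.30), although it is the polymerase of microhomology joining, an end-joining route. The other cohesin genes had 3 of 8 raised and 2 lowered, with Stag2 at 0.37, Pds5a at 0.27 and Smc1a at -0.32. With length and GC corrected, 0 of these 8 were raised and 7 lowered.

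Genes of cell division, of the p53 response and of the interferon response differed between the same libraries. The 21 S-phase and proliferation genes held 7 raised and 12 lowered, a median log2 change of -0.25 and a summed level of 1853 to 1891 scaled CPM in CuNZ@Gel and 2450.2 to 2460.5 in Gel. Among them Mki67 (-0.89) and the cyclin gene Ccna2 (-1.04) were lowered, and the cyclin gene Ccne2 (1.54) was raised. The 20 genes known as p53 targets held 13 raised and 6 lowered, a median of 1.63 and a summed level of 2151 to 2218 scaled CPM in CuNZ@Gel and 854 to 866 in Gel. The repair genes on that list differed among themselves, with Polk at 1.44, the damage sensors Xpc at 0.28 and Ddb2 at -0.58, and the nucleotide-supply gene Rrm2b at -0.58. The interferon-response list of 18 genes held 7 raised and 8 lowered among 17 tested, with a median of -0.26, and a summed level over all 18 of 576 to 599.6 scaled CPM in CuNZ@Gel and 719 to 724 in Gel. The part of these programmes in the repair changes was not tested.

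Some repair genes share a start region with a neighbour read in the opposite direction. Within 500 bases between starts there were 22 such pairs, for 21 members, of which 17 had both genes tested and 7 both genes called. In 6 of the 7 both moved the same way, as for Brca1 with Nbr1 (0.49), Xrcc6 with Desi1 (-0.57), Apex1 with Osgep (-1.17), Fancb with Mospd2 (1.19), Ercc8 with Ndufaf2 (-0.42) and Mutyh with Toe1 (-0.67), each value being the log2 change of the neighbour. Rad51c and Tex14, whose starts lie 111 bases apart across the promoter printed above, moved in opposite directions. Among all genes of the promoter table, 218 such pairs had both genes called, and both moved the same way in 153, or 70.2%. Over the 17 pairs with both genes tested, called or not, the changes had the same sign in 11 and opposite signs in 6. Tex14 had 8.26 and 5.46 scaled CPM in CuNZ@Gel, against 1.16 and 0.701 in Gel, a log2 change of 2.01.

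The calls that held most widely can be listed. Of the 22 raised members 12, and of the 22 lowered members 15, were called the same way without each library in turn. Ercc3, Msh6, Parp4, Chek2, Ercc5, Ercc6, Rad18, Rad23b, Fancm and Brca1 were raised, and Rad51b, Rad51c, Rad9a, Fancl, Fance, Xrcc1, Xrcc6, Ung, Apex1, Parp2 and Rad21 were among the lowered, in each of these fits and also under total-read scaling and after the length and GC correction. With the replicate block added to that correction, Ercc6 was no longer called in limma (log2 change 0.20, adjusted p = 0.0594). Msh6 and Parp4 on the raised side and Xrcc1, Rad51b and Rad51c on the lowered side were called in all 16 alternatives, which include a test against a minimum fold of 1.5. That test called 8.76% of all genes raised and 8.11% lowered. Leaving out CuNZ@Gel replicate 1 left 13 members raised, and 26.7% of all genes.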

How the data were processed

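Total RNA libraries of RAW264.7 cells were made with the CORALL kit, per the labels' protocols. The submitters' processing notes name GATK, fastp, STAR, Salmon and GRCm39, with no order or settings. The deposited files give log2(x + 1) per gene, where x was found to be CPM divided by a further factor per library. Reads were recovered from the steps between low values, of which 92.6% to 93.5% were whole within 0.02 reads. A count of 3 reads corresponds to 0.189 to 0.234 scaled CPM, for counting error only. The main test was limma 3.58.1 in R 4.3.3 with a variance trend on the deposited log2 values, CuNZ@Gel minus Gel, with Benjamini-Hochberg adjustment over 11588 genes. Other scaling factors were computed from the recovered reads. The recovered reads of a pair of libraries gave a chi-square per gene of 4.13 within CuNZ@Gel and 3.53 within Gel, and 116 to 141 across groups. The labels do not say whether replicate numbers pair libraries, and the main fit did not pair them. Deviations from the group mean in same-numbered libraries had a correlation of -0.12 over genes. With 2 libraries a group, the crossed numbering gives the same value with the opposite sign, so that this cannot decide the pairing.

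The members, pathway lists and neighbouring lists were chosen with earlier results of these data known. Values per library are given for up to 4 members of each pathway with the smallest p past the threshold and for fixed anchor genes, and of each neighbouring list for up to 3 genes. Length and GC were those of a gene's longest GENCODE vM21 transcript, and exon overlap was read from the same annotation, for 94% of tested genes and 100% of tested members, and the correction subtracted medians over 20 bins of each. Promoters are RefSeq entries on GRCm38.p6, matched by symbol, and no coordinate was moved between builds. Some members, partner pairs and neighbouring genes entered the fits and counts but are not reported here. The fit was checked on simulated data with known changes. The alternatives were 3 other scalings, limma-voom, 2 filters, a pseudocount of 0.1, a minimum fold of 1.5, leaving out 96 genes of mitochondria or rRNA, leaving out each library, the replicate block, and the length and GC correction with and without it.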

Additional observations from a re-analysis of the deposited data

How the results depend on the processing

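Under relative log expression scaling, upper-quartile scaling and limma-voom, 66 of the 68 tested members each time kept their direction and their side of the threshold, and 67 did with a pseudocount of 0.1. Without a filter 13 members were raised, beside 18.1% of the genes then tested, and against a minimum fold of 1.5 the counts were 2 raised and 3 lowered, beside 8.76% and 8.11% of all genes. Leaving out each library gave 13 to 19 raised and 18 to 20 lowered members, beside 26.7% to 29.4% and 29.5% to 31.5% of all genes, the lowest number raised being without CuNZ@Gel replicate 1. With the replicate block 21 members were raised and 22 lowered, beside 31% and 33.7% of all genes, and with a crossed block, added after the data were seen, 23 and 25, beside 34.8% and 37.5%. The median log2 change of the members was 0.03 under upper-quartile scaling, 0.18 with total reads, 0.033 without a filter, -0.089 after the length and GC correction, and -0.028 to 0.023 with libraries left out. The nucleotide excision median was 0.26 under relative log expression scaling, 0.27 under upper-quartile scaling, 0.28 with limma-voom, 0.42 with total reads and 0.000 after the length and GC correction. With total reads, under which the median of all genes was 0.148, the medians were 0.28 for checkpoint, 0.085 for homologous recombination, 0.037 for end joining, 0.076 for mismatch repair, -0.37 for base excision, 0.32 for the other PARP genes and 0.37 for Rad18 with Rad21. After the length and GC correction they were -0.051 for checkpoint, -0.30 for end joining, -0.15 for mismatch repair, -0.25 for base excision, 0.079 for the other PARP genes and 0.10 for Rad18 with Rad21. Without a filter mismatch repair stood at -0.033 and the other PARP genes at 0.20, which stood at 0.094 with a filter at 5 scaled CPM. With libraries left out the medians ranged from -0.15 to 0.038 for homologous recombination, -0.19 to 0.27 for the Fanconi anaemia genes and 0.092 to 0.17 for the other PARP genes. Members that changed sign after the length and GC correction included Atm (-0.17), Atr (-0.22), Lig3 (-0.25) and Parp14 (-0.091). Msh3 (-0.025) and Msh5 (0.11), which were not called before or after it, also changed sign. With the replicate block added these values and the medians were the same. The cause was not tested. With 2 libraries a group the spread rests mainly on the variance shared across genes, and genes under 5 scaled CPM carry few reads. Per-library fits without a replicate assume that the lone library varies like the other group.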
